A study of Rattus norvegicus with 6 samples.

Results

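The genes of direct reversal of DNA alkylation were examined in NRK-52E cells, an established epithelial line from rat kidney, after treatment with streptozotocin (STZ). The members were the 4 genes Mgmt, Alkbh2, Alkbh3 and Ascc3, picked by gene symbol from the 18930 rows of the deposited count table. All 4 were found, each in a single row, and all 4 had enough reads to be tested. RNA was sequenced from 3 samples of wild-type cells kept in STZ at 10 mM for 24 h (STZ) and from 3 samples of wild-type cells given vehicle (Control). STZ had been dissolved in dimethyl sulfoxide. The line is a single cultured line, and nothing read here says whether the samples of a group were separate cultures, so every p-value measures only the spread between these samples.

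STZ is a glucose-linked methylnitrosourea. It methylates DNA bases at several positions, and O6-methylguanine is the lesion that pairs wrongly with thymine at replication. Direct reversal removes such lesions without cutting the DNA strand. Mgmt, O6-methylguanine-DNA methyltransferase, moves the methyl group to a cysteine of its own and is then degraded, so each protein molecule acts a single time. Alkbh2 and Alkbh3 belong to the AlkB family of iron- and oxoglutarate-dependent dioxygenases and oxidise the methyl group off N1-methyladenine and N3-methylcytosine, Alkbh2 mainly in double-stranded DNA and Alkbh3 in single-stranded DNA and in RNA. Ascc3 is the helicase of the activating signal cointegrator complex, which unwinds DNA to give Alkbh3 a single strand and which also takes apart collided ribosomes.

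The promoters of Mgmt and Alkbh2 are shown because these members changed most, and in opposite directions. All 4 members were matched by symbol in the RefSeq promoter table of the rat assembly GRCr8, a later build than the Rnor6 assembly used by the authors. The sequences are the 250 bases before the annotated start, 5′ to 3′ on the strand of the gene, and capitals mark each CpG. They lie at chr1:201140582-201140831 on the plus strand for Mgmt and at chr12:48156604-48156853 on the plus strand for Alkbh2.
Mgmt: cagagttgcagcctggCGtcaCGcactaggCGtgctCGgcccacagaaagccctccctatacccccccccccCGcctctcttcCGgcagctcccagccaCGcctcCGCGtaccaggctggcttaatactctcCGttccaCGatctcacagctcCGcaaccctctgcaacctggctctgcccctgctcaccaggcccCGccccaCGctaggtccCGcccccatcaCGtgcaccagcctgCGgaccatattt
Alkbh2: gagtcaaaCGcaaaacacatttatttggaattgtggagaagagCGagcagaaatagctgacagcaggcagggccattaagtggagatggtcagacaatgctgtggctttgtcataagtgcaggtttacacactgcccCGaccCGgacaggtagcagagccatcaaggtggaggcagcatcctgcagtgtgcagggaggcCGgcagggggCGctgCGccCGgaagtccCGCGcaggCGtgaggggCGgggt
The Mgmt sequence held 17 CpG and the Alkbh2 sequence 12. Alkbh3 had 12 and Ascc3 had 21 in the same window, against a median of 5 over 33469 rat promoters. Such counts were not rare. At least as many CpG were held by 21.9% of promoters for Mgmt, 31.5% for Alkbh2 and Alkbh3, and 15.1% for Ascc3. Methylation of the CpG-rich promoter is the best known way in which MGMT is silenced in tumors, but methylation was not measured in these samples. The GC box GGGCGG, counted on both strands, occurred 2 times before Mgmt, 1 time before Alkbh2 and 4 times before Ascc3, with no match before Alkbh3, and 30.5% of all rat promoters held it. CCAAT occurred 1 time each before Alkbh3 and Ascc3, with no match before Mgmt or Alkbh2, and was held by 34.0% of promoters. The E2F-like string TTCCCGC had no match in these 4 windows and was held by 3.36% of promoters. The p53 half-site consensus had none either and was held by 6.64%. Matches may overlap a CpG or each other, and they are a description of the windows only.

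Libraries held between 10430924 and 15191349 counted reads, with scaling factors (trimmed mean of M values, TMM) between 0.988 and 1.02. Normalized counts below are reads scaled to a mean library of 12447173. The common biological coefficient of variation was 3.25%. The epithelial marker Krt8 was abundant, with 11691 to 14950 reads in Control and 18562 to 24040 in STZ, while Cdh1 had 16 to 35, and Krt18 had at most 3. Only 3 of the 5 epithelial markers had a row. Their summed level was 1120 to 1190 CPM in Control and 1580 to 1590 in STZ, so these groups did not overlap. The rise of the sum was that of Krt8. Cdh1 did not rise with it, at 22 to 35 reads in Control and 16 to 25 in STZ. Markers of mature proximal tubule were nearly absent, since of 6 only Aqp1 reached 10 reads in every sample. The summed level of that list was 9.97 to 16.8 CPM in Control and 5.66 to 6.75 in STZ, and the decrease was that of Aqp1, with 113 to 167 reads in Control and 66 to 81 in STZ, while the other 5 markers had at most 10 reads in any sample. The 4 leukocyte markers and 3 endothelial markers stayed at 29 reads or fewer and none reached 10 in every sample. Their sums were 1.47 to 2.2 CPM (leukocyte) and 0.157 to 0.192 CPM (endothelial) in Control, and 2.23 to 2.8 and 0.431 to 0.772 CPM in STZ. Of 5 fibroblast markers, only 4 had a row. Of these, Col1a1 and Pdgfrb reached 10 reads in every sample, with the list at 47.5 to 52.8 CPM in Control and 36.3 to 43.2 in STZ. The part of these markers in the results below was not tested.

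STZ-treated cells held more Mgmt, Alkbh3 and Ascc3 RNA and less Alkbh2 RNA than Control cells. All 4 members passed an adjusted p-value of 0.05 in edgeR's quasi-likelihood test, 3 higher and 1 lower. Such calls were common, since 50.9% of the 11870 genes tested passed, 25.9% higher and 25.1% lower in STZ. The study's further requirement of an absolute log2 fold change over 1 left 3.37% of genes, 2.26% higher and 1.11% lower, and Mgmt and Alkbh2 met it. These shares and calls rest on the filter and test used here. They are not the study's own calls, which were fewer. In bulk RNA, a change in the RNA of each cell and a change in which cells were present cannot be told apart.

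**Figure D1:**
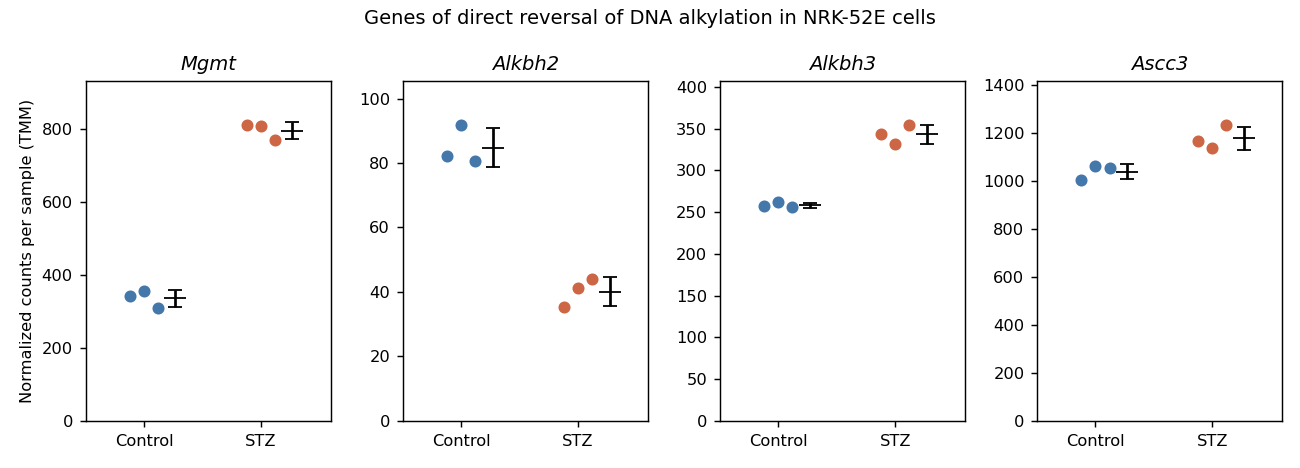
Normalized counts (y axis, TMM-scaled reads, from 0) of Mgmt, Alkbh2, Alkbh3 and Ascc3 in each sample, with Control in blue and STZ in orange. Points are samples and black bars are the mean ± SD of 3 samples. Mgmt rises from 309 to 357 in Control to 769 to 810 in STZ, and Alkbh2 falls from 80.6 to 91.7 to between 35.3 and 44.0.

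Mgmt, which takes the methyl group off O6-methylguanine, had the largest rise of the members. The Control samples held 291, 315 and 318 reads (replicates 1, 2 and 3) and the STZ samples 895, 746 and 926. Every STZ sample lay far above every Control sample, while samples of a group lay close together. Normalized counts averaged 336 ± 24.5 in Control and 795 ± 22.7 in STZ (mean ± SD, n = 3 each), a 2.37-fold rise. The log2 fold change was 1.25, with a 95% confidence interval of 1.12 to 1.38, a standard error of 0.06 and a Benjamini-Hochberg adjusted p of 3.46e-20 (edgeR quasi-likelihood). The whole interval lay above the study's fold threshold. Of the genes tested, 171 had a log2 fold change as high as that of Mgmt or higher, which is 1.44%.

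Alkbh2, the demethylase of double-stranded DNA, was the member that fell. The Control samples held 70, 81 and 83 reads (replicates 1, 2 and 3) and the STZ samples 39, 38 and 53. The STZ libraries were the deeper ones on the whole, yet each held fewer Alkbh2 reads than any Control library. Normalized counts averaged 84.8 ± 6.02 in Control and 40.1 ± 4.44 in STZ (mean ± SD, n = 3 each), so the level in STZ was 47.5% of that in Control by the fitted change. The log2 fold change was -1.07, with a 95% confidence interval of -1.42 to -0.73, a standard error of 0.17 and an adjusted p of 1.33e-06 in the edgeR test. This interval crossed the fold threshold of -1, and without STZ replicate 1 the log2 fold change was -0.98, short of that threshold, with an adjusted p of 5.74e-05 in the same edgeR test. Of the genes tested, 99 had a log2 fold change as low or lower, which is 0.834%. The low read counts made Alkbh2 the least precisely measured member.

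Alkbh3, the demethylase of single-stranded DNA and RNA, rose by a smaller amount. The Control samples held 219, 231 and 264 reads (replicates 1, 2 and 3) and the STZ samples 379, 307 and 426. Normalized counts averaged 258 ± 2.82 in Control and 343 ± 10.9 in STZ (mean ± SD, n = 3 each), and the groups did not overlap. The log2 fold change was 0.41, a 1.33-fold rise, with a 95% confidence interval of 0.25 to 0.57, a standard error of 0.08 and an adjusted p of 2.29e-05 in the edgeR test. A change this high or higher was found in 10.7% of the genes tested.

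Ascc3, the helicase that works with Alkbh3, had the smallest change of the members. The Control samples held 856, 939 and 1086 reads (replicates 1, 2 and 3) and the STZ samples 1289, 1055 and 1485. After scaling, the lowest STZ sample (1141 normalized counts) stood a little above the highest Control sample (1063). The means were 1040.5 ± 31.5 in Control and 1180.2 ± 47.7 in STZ (mean ± SD, n = 3 each). The log2 fold change was 0.18, with a 95% confidence interval of 0.08 to 0.28, a standard error of 0.05 and an adjusted p of 0.00166 in the edgeR test, and 25.5% of the genes tested had a change this high or higher. In the GRCr8 annotation Ascc3 overlaps an unnamed long non-coding RNA on the opposite strand, and no source used here says whether the counting took strand into account, so reads of the pair may be mixed. The other 3 members overlap no annotated gene there.

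All 4 members had groups without overlap in normalized counts, as did 56.3% of the genes tested, 28.6% with STZ higher and 27.7% with STZ lower. Levels were not compared between genes, because transcript lengths of the annotation used for counting were not used here.

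**Figure D2:**
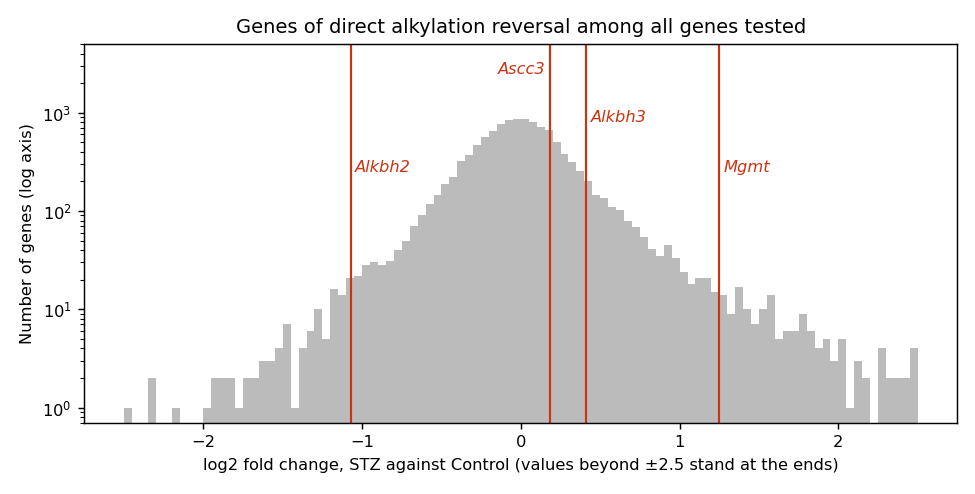
Histogram of the log2 fold change (x axis, STZ against Control) of the 11870 genes tested, with the number of genes on a log axis and red lines at the 4 members. Ascc3 at 0.18 and Alkbh3 at 0.41 stand in the body of the distribution, and Mgmt at 1.25 and Alkbh2 at -1.07 in its outer parts.

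To set members against each other without any scaling of libraries, the ratio of their reads was taken within each sample. With 3 samples against 3, the smallest p of the exact two-sided permutation test was 0.1, so no ratio could pass 0.05. There were 4 such ratios, and the p-values were adjusted over them by Benjamini-Hochberg. For each read of Alkbh3 the Control samples held 0.321, 0.352 and 0.316 reads of Alkbh2 (replicates 1, 2 and 3), and the STZ samples 0.104, 0.125 and 0.125. The log2 ratio averaged -1.60 ± 0.08 in Control and -3.09 ± 0.15 in STZ (mean ± SD, n = 3 each), a difference of -1.48 (exact permutation p = 0.1, adjusted p = 0.133). Every STZ sample lay below every Control sample. Alkbh2 and Alkbh3 had already moved in opposite directions without overlap, so this order and its p were fixed by those values. The ratio gives the size of the shift and is no separate support. Reads of Mgmt for each read of Alkbh2 numbered 4.13, 3.87 and 3.81 in Control and 22.7, 19.4 and 17.3 in STZ. This ratio was chosen after the values were seen, and its log2 value differed by 2.32 (exact permutation p = 0.1, adjusted p = 0.133), with the groups far apart. Its order too was fixed by the opposite moves of Mgmt and Alkbh2.

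The helicase was also set against the other subunits of its complex, Ascc1, Ascc2 and Trip4. The log2 ratio of Ascc3 to their mean was 0.53, 0.60 and 0.60 in the Control samples (replicates 1, 2 and 3) and 0.65, 0.57 and 0.73 in the STZ samples. The groups overlapped, with means of 0.57 ± 0.04 in Control and 0.65 ± 0.08 in STZ (SD, n = 3 each), a difference of 0.08 (exact permutation p = 0.3, adjusted p = 0.3). With 3 samples against 3 the smallest p possible is 0.1, so this p does not show that the ratio was unchanged, and the subunits in the mean moved in different directions.

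**Figure D3:**
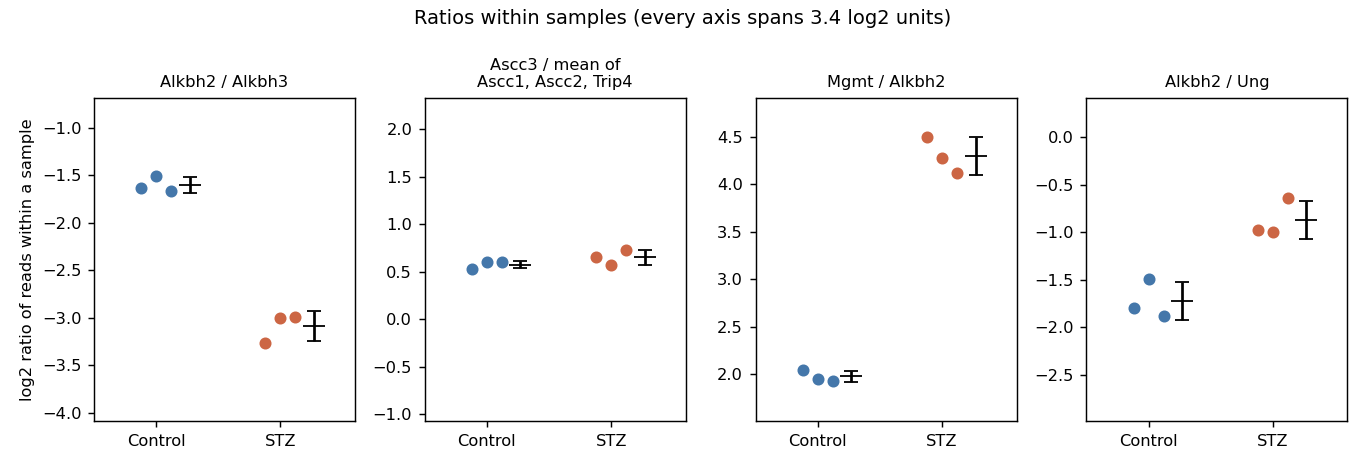
Log2 ratio of reads within each sample (y axis, every axis spanning the same number of log2 units) for Alkbh2 to Alkbh3, Ascc3 to the mean of Ascc1, Ascc2 and Trip4, Mgmt to Alkbh2, and Alkbh2 to Ung. Points are samples, with Control in blue and STZ in orange, and black bars are the mean ± SD of 3 samples. The groups stand apart in every panel but that of Ascc3, where they overlap.

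Genes that act with the members did not all change in the same direction. Of 9 such genes, 2 rose, 4 fell and 3 did not pass the test. Of all genes tested, 50.9% passed, 25.9% higher and 25.1% lower, so this count is a description only. The median log2 fold change of the 9 genes was 0.06, against -0.0055 over all genes tested. Within the activating signal cointegrator complex, Ascc2, which binds the ubiquitin chains made at alkylation damage, rose by 0.30 on the log2 scale (standard error 0.05, edgeR adjusted p = 3.45e-06). Its levels were 1115 ± 26.8 normalized counts in STZ and 907 ± 40.4 in Control (SD, n = 3 each). Trip4, the coactivator subunit, had a log2 fold change of 0.18 (adjusted p = 0.0133, edgeR), and its call was lost without Control replicate 2 (adjusted p = 0.11, edgeR) and with DESeq2 (adjusted p = 0.0515). Ascc1 fell by 0.28 on the log2 scale, with 552 ± 23.6 normalized counts in STZ and 671 ± 41.4 in Control (SD, n = 3 each). Subunits of the same complex thus differed in direction.

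Otud4, a deubiquitinase that protects Alkbh2 and Alkbh3 from degradation, fell by 0.27 on the log2 scale (adjusted p = 1.39e-04, edgeR). Usp7, a deubiquitinase that works through Otud4, fell by 0.24 (adjusted p = 8.44e-06, edgeR), while Usp9x, another of these, had a log2 fold change of 0.06 and did not pass the test. Pcna, the replication clamp that Alkbh2 binds, had 2827, 3175 and 3560 reads in the Control samples (replicates 1, 2 and 3) and 2349, 1867 and 2523 in the STZ samples. On the log2 scale the change was -0.73 (edgeR adjusted p = 3.7e-19, standard error 0.04), the largest among these 9 genes. Pcna, like Alkbh2, was lower in every STZ sample than in any Control sample, and its part in the fall of Alkbh2 was not tested. Rnf113a1 and Rnf113a2, copies of the ubiquitin ligase gene that starts the recruitment of the complex, had log2 fold changes of 0.19 and 0.07 and did not pass the test. Rnf113a1 had only 12 to 24 reads, and since only uniquely mapped reads were counted, reads that fit both copies were dropped.

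The other members of the AlkB family mostly had small changes. Of 7 genes, 4 rose, 1 fell and 2 did not pass the test, with a median log2 fold change of 0.21. This count too is a description only, since 50.9% of all genes tested passed, 25.9% higher and 25.1% lower. The genes that rose were Alkbh1, which acts on mitochondrial and transfer RNA, Alkbh4, Alkbh6 and Alkbh7, a mitochondrial protein of alkylation-induced cell death. Their log2 fold changes were 0.21, 0.33, 0.24 and 0.24, with edgeR adjusted p-values of 0.0135, 0.0298, 0.0274 and 0.0146. These 4 calls were not firm, since none was kept by DESeq2's Wald test (adjusted p of 0.0575, 0.0925, 0.0941 and 0.0591). Fto, a demethylase of N6-methyladenosine in RNA, fell by 0.23 on the log2 scale (standard error 0.05, adjusted p = 1.50e-04, edgeR), with 851 ± 23.8 normalized counts in STZ and 998 ± 3.44 in Control (SD, n = 3 each). Alkbh5, the other RNA demethylase of that mark, had a log2 fold change of 0.03, and Alkbh8, a transfer RNA methyltransferase, 0.10, and neither passed the test. The largest change in this list was 0.33, while Alkbh2 had -1.07 and Alkbh3 0.41.

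Methylated bases are also met by other routes, excision of the damaged base and mismatch recognition. Mpg, the glycosylase that cuts out N3-methyladenine and N7-methylguanine, had 122, 135 and 166 reads in the Control samples (replicates 1, 2 and 3) and 123, 119 and 135 in the STZ samples. In the deeper STZ libraries this was lower after scaling, a decrease from 152 ± 8.99 to 117 ± 9.82 normalized counts (SD, n = 3 each), with a log2 fold change of -0.39 (edgeR adjusted p = 0.00488, standard error 0.12). Msh6, a subunit of the mismatch sensor that recognises O6-methylguanine paired with thymine, rose by 0.11 on the log2 scale (standard error 0.04, adjusted p = 0.0125, edgeR). The rise of Msh6 did not pass with library size as the only scaling (adjusted p = 0.0759) or without STZ replicate 3 (adjusted p = 0.0771). The mismatch repair endonuclease gene Pms2 had a log2 fold change of 0.10 and the exonuclease gene Exo1 -0.16, and neither passed the test. Thus Mgmt rose while Mpg, which acts on other methylated bases, fell by a smaller amount.

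**Figure D4:**
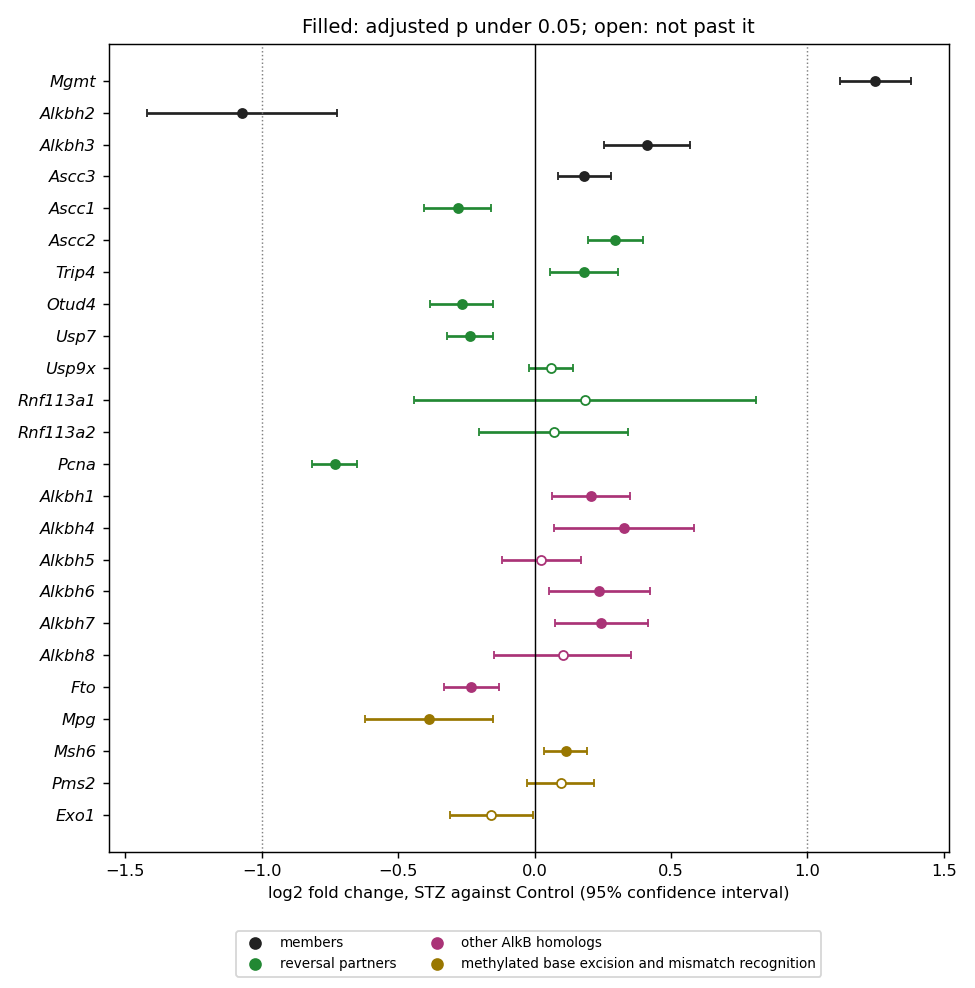
Log2 fold change (x axis, STZ against Control) with its 95% confidence interval for the 4 members and 20 genes of the related lists, coloured by list. Filled points have an adjusted p under 0.05 in edgeR's quasi-likelihood test, and dotted lines mark the fold threshold of the study. Mgmt at 1.25 and Alkbh2 at -1.07 are the only genes plotted beyond those lines, and the interval of Alkbh2 reaches back across its line.

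In the GRCr8 annotation the gene next to Alkbh2 on the side of its start is Ung, which encodes uracil-DNA glycosylase and is read from the opposite strand, so that the starts of the genes face away from each other. Ung was looked at after the fall of Alkbh2 had been seen. It had 244, 229 and 307 reads in the Control samples (replicates 1, 2 and 3) and 77, 76 and 83 in the STZ samples, which gave a log2 fold change of -1.95 (edgeR adjusted p = 1.25e-18, standard error 0.11). Both of these divergent neighbours fell, Ung by the larger amount. Reads of Alkbh2 for each read of Ung numbered 0.288, 0.355 and 0.272 in Control and 0.51, 0.503 and 0.641 in STZ, a log2 difference of 0.85 (exact permutation p = 0.1, adjusted p = 0.133). On the other side of Alkbh2, the mitochondrial deubiquitinase gene Usp30 rose by 0.27 on the log2 scale (edgeR adjusted p = 0.00187, standard error 0.07), so the fall was not shared by that neighbour. Next to Alkbh3, Hsd17b12 had a log2 fold change of -0.03 and did not pass the test. In the 250 bases before its start in the RefSeq table, Ung had 27 CpG, 3 GC boxes GGGCGG, 3 CCAAT and 1 TTCCCGC, against 12, 1, 0 and 0 for Alkbh2. At least 27 CpG were held by 7.69% of rat promoters. The window of Ung lies at chr12:48154046-48154295 and that of Alkbh2 at chr12:48156604-48156853. These windows do not overlap, and whether the genes share a promoter was not tested.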

How the data were processed

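RNA of NRK-52E cells (3 Control and 3 STZ samples) was made into TruSeq stranded mRNA libraries and sequenced as 100-base single-end reads. The authors aligned reads to Rnor6 with STAR 2.7.10a, kept uniquely mapped ones, assigned them to genes with featureCounts of Subread, and deposited raw counts without normalization. The strand setting and annotation are not given in the sources used here.

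With edgeR 4.0.16 (R 4.3.3), low genes were removed by filterByExpr, libraries were scaled by TMM, and the groups were compared by the quasi-likelihood test over 11870 genes, with Benjamini-Hochberg adjustment. A call is an adjusted p-value under 0.05, and the study's fold threshold is given beside it. Standard errors are the absolute log2 fold change over the square root of the F statistic. The members, the 3 related lists and the rule for naming genes (the members and every gene of these lists) were chosen with earlier results of these data known. Ratios used a pseudocount of 0.5 reads. The pipeline was tested on simulated counts. Far fewer genes were changed in that simulation than were called in these data, so it does not measure the error of the calls given here. Same-numbered samples had deviations correlated at 0.0475, -0.0398 and 0.0746 across genes, so no pairing was seen in these values. Whether such samples were handled together is not known, and these correlations cannot exclude it. No pair of replicates was alike within sampling noise (chi-square per degree of freedom of at least 1.85).

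The alternatives were 2 other filters, 3 other scalings, DESeq2 1.42.0, limma-voom (limma 3.58.1), the replicate number as a block, another pseudocount, and each of the 6 samples left out. Sequences are from RefSeq (GRCr8). Intervals for ratios were not computed. Some genes of the third list (base excision and mismatch recognition) and of the likeness ranking are not reported here, so counts over that list are not given. Values rest on library depth, which leaves Alkbh2 and Rnf113a1 with few reads.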

Additional observations from a re-analysis of the deposited data

How the results depend on the processing

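The log2 fold changes of the 4 members stayed past the adjusted p threshold, with no turn of direction, in all 56 refits. With one sample left out they were 1.19 to 1.29 for Mgmt, -1.15 to -0.98 for Alkbh2, 0.39 to 0.43 for Alkbh3 and 0.15 to 0.21 for Ascc3, and over the other alternatives 1.21 to 1.25, -1.11 to -1.07, 0.38 to 0.42 and 0.15 to 0.19. The highest adjusted p was 0.0229, for Ascc3 without STZ replicate 3. The number of members past both thresholds, added after the data had been seen, was 2, and 1 to 2 with one sample left out; it was 1 without STZ replicate 1. The 5 calls among the other AlkB homologs became 3 with library size only and 1 with DESeq2's Wald test, and 2 to 5 with one sample left out, with 2 without Control replicate 3 or STZ replicate 2 and 3 without Control replicate 2 or STZ replicate 1. The cause was not tested. Of 308 refits of the 22 list genes, 279 were unchanged in call and direction, 20 lost and 4 gained a call, and 5 turned direction. The last were of genes never past the threshold in these refits, namely Alkbh5 (-0.0082 with library size only, -0.0035 to 0.084 with one sample left out), Rnf113a2 (-0.012 to 0.16) and Alkbh8 (-0.045 to 0.24). Exo1 passed with the upper quartile, library size only or without STZ replicate 2, and Usp9x without STZ replicate 2.

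Another pseudocount or the loss of a sample turned no ratio; the ratio of Ascc3 to its complex was 0.04 to 0.12 with one sample left out. With the replicate block, the log2 fold changes were 1.25 for Mgmt, -1.07 for Alkbh2, 0.41 for Alkbh3 and 0.18 for Ascc3, and 6199 genes passed against 6046 without it; the block changed no call of a member or list gene. The median of all genes moved by less than 0.1 (log2) under every scaling tried. Depth limits Alkbh2, with 38 to 83 reads a sample, and Rnf113a1, with 12 to 24.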

Other observations

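For each member, the 3 genes with the most similar pattern were taken from those with a symbol and a mean normalized count of 50 or more, by the Pearson correlation of log2 CPM over the 6 samples. The points share their libraries and the step between the groups, which sets most of each correlation, so the values are a description. For Mgmt they were Irf7, an interferon regulatory factor (r = 0.9998), Cox4i1, a subunit of cytochrome c oxidase (0.9993), and Ier5, an immediate early response gene (0.9992), with log2 fold changes of 1.39, 0.26 and 0.99. For Alkbh2 they were Fh, fumarate hydratase, Kctd15 and Raly, each at 0.9964, with log2 fold changes of -0.47, -0.87 and -0.21. For Alkbh3 they included Gstp1, a glutathione S-transferase (0.9998) and Tyms, thymidylate synthase (0.9986), at 0.41 and 0.52. For Ascc3 they were Bola3, Acer3, an alkaline ceramidase, and Rps15a, a ribosomal protein, at correlations of 0.9948, 0.9947 and 0.9939. The members did not appear in each other's lists. With only 3 genes a list, and Alkbh2 moving against the other members, this says nothing about how alike they are.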
